A study of Mus musculus with 15 samples.

Results

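The samples described here are the 3 vehicle-injected MC38 tumours of a series of 15, chosen by their labels alone and not by any measured value. MC38 is a colon carcinoma line of C57BL/6 mice, grown here under the skin of the right flank of C57BL/6 animals. When tumours measured about 5 mm they received 100 µL of vehicle, PBS with 5% DMSO and 5% glucose, and neither of the agents tested in the rest of the series. They were taken 24 h later and their RNA was sequenced as stranded mRNA libraries with paired reads of 150 bp.

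The tumours are labelled biological replicates and are called vehicle 1, 2 and 3 below. The labels give the strain of the host animals but no age and no genetic change. No tumour without an injection is described, so effects of the needle and the solvent cannot be told apart from the tumour itself. The line is transplanted as cultured cells into a site that is not the bowel. Skin and flank muscle lie next to such a site.

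A tumour of this kind is a mixture. Besides the carcinoma cells it holds fibroblasts that lay down collagen, blood vessels, macrophages and smaller numbers of lymphocytes. Interferon-gamma, made by activated T cells and NK cells, acts through the receptor kinases Jak1 and Jak2 and switches on guanylate-binding proteins, immunity-related GTPases, antigen presentation genes and the T cell attractants Cxcl9 and Cxcl10. Macrophages exposed to interferon-gamma make Nos2, while those exposed to interleukin 4 or 13 make Arg1, Retnla, Chil3, Mrc1 and Mgl2.

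The libraries held 13073772 (vehicle 1), 15737746 (vehicle 2) and 15632605 (vehicle 3) reads over the 17712 genes of the table. Levels are reads of a gene per 1000000 of the scaled library (CPM), obtained as 2 to the power of the deposited log2 value. At 1 CPM a gene had 14.0 to 16.9 reads, and counting error alone gave a coefficient of variation of 24.4 to 26.7%. At 10 CPM it gave 7.70 to 8.44%. The spread between tumours is described with no test, because the 3 tumours form a single group. In bulk RNA, fewer cells of a type and less RNA per cell cannot be told apart.

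Vehicle 3 differed most from both other tumours. It was lowest for most interferon-gamma response and T cell genes and high for a smaller group of genes, Retnla and Chil3 among them. Vehicle 2 was highest for the skeletal muscle genes with a mean of at least 1 CPM. Values in CPM are therefore given for each tumour. Levels per kilobase and a few sums and shares are means over the 3 tumours, with the SD. Range below is the highest tumour over the lowest. Among all genes averaging at least 10 CPM, 2.24% had a range of at least 2-fold, and 6.91% of those averaging at least 1 CPM did. Counts of such ranges in a list below are to be read against these shares. No share over all genes is given for counts of members lowest or highest in a tumour, so those counts describe the order in a list only.

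Of the 17712 genes, 13970 had a mean of at least 1 CPM, 9715 of at least 10 CPM, 2235 of at least 100 CPM and 76 of at least 1000 CPM. The 10 most abundant genes held 4.47% ± 0.209 (SD, n = 3) of all CPM and the 100 most abundant 17.0% ± 0.362. By CPM the highest was mt-Co1 (ENSMUSG00000064351.1), the mitochondrial subunit of cytochrome oxidase, at 7549.9, 7147 and 9219 CPM in vehicle 1, 2 and 3. Next came the translation elongation factor Eef1a1 at 6788, 7198 and 6803 CPM and the mitochondrial cytochrome b gene mt-Cytb at 4800.2, 4038 and 5839.8 CPM. The first gene of the matrix was Col3a1, a fibrillar collagen, at 4589, 2743 and 3809 CPM. Actin (Actb), vimentin (Vim), the glycolytic enzyme Gapdh and the MHC class I light chain B2m followed. The rest of the first 20 were mt-Nd1, the chaperones Hsp90ab1 and Hspa8, fibronectin (Fn1), Rplp0, the class I heavy chains H2-D1 and H2-K1, the galectin Lgals1, the lysosomal prosaposin Psap, Eef2, the ferritin chain Fth1 and the MHC class II invariant chain Cd74.

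Reads grow with transcript length, so genes were ordered again by CPM per kilobase of exon, rescaled so that the genes of a tumour sum to 1000000. On this scale mt-Co1 stood at 18560.3 ± 2370.3, mt-Cytb at 15393 ± 2776 and B2m at 11526 ± 2135 (SD, n = 3). Eef1a1 stood at 10005 ± 317 and Lgals1, a secreted galectin, at 9181 ± 559 per kilobase. Cd74 stood at 4121 ± 320.1, lysozyme (Lyz2), a macrophage enzyme, at 3264 ± 188, H2-D1 at 3262 ± 532 and the antigen-processing protease cathepsin S (Ctss) at 3202 ± 509. The others of the first 20 included the mitochondrial genes mt-Nd2 (4952 ± 572) and mt-Nd4 (3404 ± 676) and the ribosomal protein genes Rplp1 (6725 ± 849.9), Rpl8 (4656 ± 346), Rps15 (4644 ± 131) and Rps3a1 (4433 ± 566). Antigen presentation and macrophage genes were thus among the 20 highest beside mitochondrial and ribosomal genes. The order depends on the lengths taken: with the median length of coding transcripts 11 of the 20 were shared. The pseudogene Gm10736 was also in the first 20 per kilobase, at 7454 ± 589. By CPM it stood at only 153, 179 and 154, so its place per kilobase rests on a short exon length. Ribosomal protein genes and mitochondrial genes have near-identical copies elsewhere in the genome, so their reads can be split. The mitochondrial genes mt-Co2, mt-Co3 and mt-Atp6 are uncertain for this reason and stood at 18.5, 21.5 and 33.3 CPM, 9.004, 10.6 and 19.4 CPM and 16.4, 15.1 and 19.8 CPM in turn.

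The 4 listed genes, chosen from those in which MC38 carries known neoantigen mutations, were present in each tumour. Counts per gene do not tell a mutated transcript from a normal one. Adpgk, a glucokinase, stood at 56.4, 53.4 and 53.998 CPM in vehicle 1, 2 and 3, Reps1, an endocytosis protein, at 90.5, 95.7 and 93.5 CPM, and Dpagt1, an enzyme of glycosylation, at 48.4, 48.6 and 46.4 CPM. The ribosomal protein gene Rpl18 stood at 472, 528 and 575 CPM. The highest tumour was 1.06-fold the lowest for Adpgk and 1.22-fold for Rpl18.

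Genes of intestinal identity were nearly silent. Of 16 in the list 5 had a value and 2 had a mean of at least 1 CPM, and their summed level was 6.87, 4.75 and 3.83 CPM. The highest was the galectin Lgals4 at 3.38, 2.63 and 2.11 CPM, and the stem cell receptor Lgr5 stood at 2.24, 1.06 and 0.860 CPM. The goblet cell mucin Muc2 stood at 0.391, 0.515 and 0.385 CPM and the colonic keratin Krt20 at 0.320, 0.0908 and 0.148 CPM. Other members, the intestinal regulator Cdx2 and the brush border protein Vil1 among them, are not analysed here.

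Some epithelial genes were also low. Of 16 keratin and junction genes 6 had a value, and 3 of these had a mean of at least 10 CPM. The other 10 had no value and are not analysed here. The adhesion protein Epcam stood at 1.89, 1.24 and 2.70 CPM and the regulator of epithelial splicing Esrp1 at 0.605, 1.12 and 0.860 CPM. Keratin 19 (Krt19) had 1, 2 and 1 reads. E-cadherin (Cdh1) was higher, at 25.7, 27.4 and 82.6 CPM, and was 3.22-fold higher in vehicle 3 than in vehicle 1. The highest of the list in each tumour was Tjp1 (115, 103 and 88.5 CPM), a junction protein also made by endothelium. The list's sums were 164, 147 and 195 CPM, and in vehicle 3 Cdh1 came close to Tjp1.

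Genes of a mesenchymal state were all measured, 13 of 13, with summed levels of 8428, 7973 and 7589.8 CPM. Fibroblasts and macrophages also express many of them. Vim stood at 3550.4, 3577 and 3079.9 CPM and Fn1 at 2758, 2315 and 2656 CPM. The receptor kinase Axl stood at 801, 843 and 709 CPM and the hyaluronan receptor Cd44 at 633, 664 and 554 CPM. Among the transcription factors that repress epithelial genes, Zeb1 stood at 166, 136 and 141 CPM, Zeb2 at 163, 161 and 139 CPM, Snai1 at 82.5, 53.0 and 60.9 CPM and Twist1 at 35.1, 30.3 and 33.5 CPM. Of the 13, 0 had a range of at least 2-fold, a count near the 6.91% of all genes with a mean of at least 1 CPM.

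Proliferation genes were high in all 3 tumours. All 28 cell cycle genes had a mean of at least 10 CPM, and 0 of 28 had a range of at least 2-fold, where 2.24% of all genes with that level did, so the count does not set them apart. Topoisomerase 2 (Top2a), which untangles replicated DNA, stood at 621, 656 and 535 CPM and the proliferation antigen Mki67 at 351, 347 and 282 CPM. The mitotic kinase Cdk1 stood at 173, 178 and 178 CPM and the replication clamp Pcna at 214, 236 and 208 CPM. The median range was 1.16-fold, against 1.17-fold over all genes with a mean of at least 10 CPM. The sums were 4315, 4571 and 3954 CPM, and 21 of the 28 genes were lowest in vehicle 3.

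Among 18 oncogenes and tumour suppressors 0 had a range of at least 2-fold, near the share of all genes with a mean of at least 1 CPM (6.91%). Cyclin D1 (Ccnd1) stood at 584, 638 and 409 CPM, Myc at 145, 192 and 202 CPM and the growth regulator Hmga2 at 132, 158 and 89.2 CPM. The Wnt effector Ctnnb1 stood at 252, 256 and 257 CPM and Trp53 at 138, 144 and 136 CPM. The tumour suppressor locus Cdkn2a was low, at 2.60, 4.39 and 3.88 CPM. The proofreading polymerases Pole (87.6, 81.2 and 64.3 CPM) and Pold1 (66.7, 63.4 and 51.98 CPM) and the mismatch repair gene Msh6 (89.7, 86.8 and 73.5 CPM) were present in every tumour.

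Glycolysis genes were lowest in vehicle 3 in 15 of 15 cases, by small amounts. Their sums were 10493, 10932 and 8921 CPM, the median range was 1.25-fold and 0 of 15 had a range of at least 2-fold, near the 2.24% of all genes with a mean of at least 10 CPM. Pyruvate kinase (Pkm) stood at 1767, 1934 and 1439.7 CPM, lactate dehydrogenase (Ldha) at 779.9, 843 and 743 CPM and the glucose transporter Slc2a1 at 170.1, 138 and 122 CPM. The 27 nuclear genes of oxidative phosphorylation ran the other way, lowest in vehicle 1 in 25, with sums of 3972, 4357 and 4492 CPM. The 33 ribosomal protein genes were lowest in vehicle 1 in 33 of 33, with sums of 28561, 32506 and 34554 CPM. These are short transcripts. The shortest 20% of coding genes with a mean of at least 10 CPM stood -0.05 (vehicle 1), 0.02 (vehicle 2) and 0.04 (vehicle 3) on the log2 scale from the mean of the 3 tumours, and the longest 20% 0.06, 0.02 and -0.08. The part of transcript length in these orders was not tested.

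Hypoxia genes were highest in vehicle 1 in 11 of 17, with sums of 1524, 1216 and 1315 CPM. The angiogenic factor Vegfa stood at 245, 195 and 229 CPM and the collagen hydroxylase P4ha1 at 293, 234 and 215 CPM. Carbonic anhydrase 9 (Car9), a textbook hypoxia gene, was low at 4.59, 3.54 and 3.83 CPM. In the list of the unfolded protein and integrated stress responses, 1 of 16 genes had a range of at least 2-fold, where 2.24% of all genes with a mean of at least 10 CPM did. It was the pseudokinase Trib3, at 73.3, 94.6 and 173 CPM. The stress factor Atf4 stood at 523, 645 and 653 CPM and its target Chac1 at 32.6, 33.2 and 52.4 CPM. Both genes of the vehicle 1 low pattern with a mean of at least 10 CPM were enzymes of amino acid synthesis, Psph (serine) at 41.03, 71.3 and 87.8 CPM and Cth (cysteine) at 12.99, 23.3 and 29.2 CPM. Heat shock genes were highest in vehicle 2 in 9 of 12, among them the chaperone Hsph1 at 235, 381 and 227 CPM and the inducible Hspa1b at 22.6, 41.4 and 11.9 CPM.

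Sterol and fatty acid synthesis genes had sums of 4673, 3982 and 4216 CPM. Of the 18, 0 had a range of at least 2-fold, a count near the 6.91% of all genes with a mean of at least 1 CPM. The desaturase Scd2 stood at 1564, 1206 and 1475 CPM and fatty acid synthase (Fasn) at 578, 509 and 403 CPM. Of 12 iron and metal genes, the ferritin chain Fth1 stood at 2080.1, 2346 and 2027 CPM and haem oxygenase (Hmox1) at 118, 85.4 and 120.4 CPM. The phagosomal metal transporter Slc11a1 was lower in vehicle 3, with 52.1, 70.2 and 23.9 CPM.

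The matrix was a large share of the baseline. The 25 matrix and basement membrane genes summed to 16672, 12856 and 13122 CPM, and 21 were highest in vehicle 1. Collagen VI was abundant, with Col6a1 at 2004, 1133 and 1504 CPM, Col6a2 at 1364, 759.6 and 1154 CPM and Col6a3 at 1684, 1386 and 1333 CPM. Sparc, a collagen-binding protein, stood at 1471, 1126 and 1112 CPM, and the heparan sulfate proteoglycan perlecan (Hspg2) at 949.8, 698 and 544 CPM. Elastin (Eln), at 6.94, 7.78 and 3.11 CPM, was the 1 gene of the 25 with a range of at least 2-fold, near the 6.91% of all genes with a mean of at least 1 CPM.

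Fibroblast genes were lowest in vehicle 2 by sum, 7939, 5018 and 6645 CPM, a sum that rests largely on Col3a1. All 19 members had a mean of at least 1 CPM and 4 had a range of at least 2-fold, where 6.91% of all genes with that mean did. Collagen I was lower than collagen III by CPM per kilobase, with 448 ± 116 for Col1a1, 129 ± 32.7 for Col1a2 and 1368 ± 376 for Col3a1. Periostin (Postn), a matrix protein of activated fibroblasts, stood at 914, 470.0 and 1034 CPM and was low in vehicle 2. Dermatopontin (Dpt), which binds decorin, stood at 33.9, 20.3 and 42.2 CPM, also low in vehicle 2. The growth factor receptors Pdgfra (209, 154 and 168 CPM) and Pdgfrb (161, 107 and 136 CPM) were expressed in all 3 tumours, and the activation marker Fap stood at 2.10, 2.15 and 3.77 CPM.

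Of the 9715 genes at 10 CPM or more on average, 11 (0.113%) had a range of at least 2-fold and stood apart low in vehicle 2. Postn and Dpt were among them. Transforming growth factor beta 3 (Tgfb3) stood at 242, 118 and 259 CPM. The lysophospholipid enzyme Enpp2, which makes lysophosphatidic acid, stood at 254, 134 and 308 CPM. The alarmin Il33 stood at 31.9, 16.5 and 33.8 CPM, the matrix protein Hmcn1 at 20.3, 9.60 and 18.8 CPM and the dendritic cell chemokine Ccl22 at 19.4, 10.3 and 21.9 CPM. The transcriptional corepressor Cbfa2t3 stood at 12.8, 6.51 and 15.6 CPM and the ring finger gene Rnf150 at 29.4, 14.01 and 30.2 CPM. Each was higher in both vehicle 1 and vehicle 3, as the rule that set them apart requires.

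Matrix-degrading enzymes and their inhibitors were present at 5457, 5780.4 and 6051 CPM in sum. The lysosomal protease Ctsb stood at 1114, 1271 and 1317 CPM, the membrane protease Mmp14 at 552, 500.0 and 609 CPM, the gelatinase Mmp2 at 309, 249.9 and 313 CPM and the inhibitor Timp2 at 909, 821 and 1041 CPM. The collagenase Mmp13 stood at 27.01, 40.04 and 16.1 CPM and had the largest range among the 19, 2.49-fold.

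Endothelial genes had sums of 468, 482 and 429 CPM. Of the 20, 1 had a range of at least 2-fold, the transcription factor Sox17 at 1.10, 1.18 and 2.28 CPM, a count near the 6.91% of all genes with a mean of at least 1 CPM. The adhesion protein Pecam1 stood at 62.2, 70.5 and 60.3 CPM, the fenestral diaphragm protein Plvap at 62.1, 64.9 and 55.7 CPM, von Willebrand factor (Vwf) at 50.2, 48.1 and 49.4 CPM and the VEGF receptor Kdr at 22.6, 24.003 and 16.2 CPM. Of lymphatic genes the regulator Prox1 stood at 0.178, 0.393 and 0.208 CPM and Lyve1, which some macrophages also express, at 1.17, 2.27 and 4.24 CPM. Pericyte and smooth muscle genes were low, with Rgs5 at 34.1, 27.3 and 52.04 CPM, Acta2 at 13.1, 20.01 and 17.999 CPM and the smooth muscle myosin Myh11 at 1.89, 2.27 and 2.40 CPM. The proteoglycan Cspg4 was higher, at 145, 148 and 118 CPM.

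Skeletal muscle genes marked vehicle 2. Of 14 muscle genes with a mean of at least 1 CPM, 14 were highest in vehicle 2 and 13 had a range of at least 2-fold, where 6.91% of all genes with that mean did. Of these, 4 stood apart high in vehicle 2, a pattern of 0.394% of those genes, and 9 were graded. A tumour is said to stand apart where its gap to the middle tumour is at least 0.7 of the log2 range, and otherwise a gene is graded. Skeletal actin (Acta1) stood at 0.961, 57.96 and 5.60 CPM, the fast myosin Myh1 at 0.676, 36.6 and 2.52 CPM and the calcium pump Atp2a1 at 0.676, 17.8 and 2.11 CPM. The creatine kinase Ckm had 0, 107 and 12 reads, myosin Myh2 0, 59 and 9 reads, and myoglobin (Mb) 0, 28 and 0 reads. The limit that 0 reads allows, 3 reads, is 0.214 CPM in vehicle 1 and 0.178 CPM in vehicle 3, for counting error only.

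The sums of the muscle list were 32.6, 232 and 43.4 CPM. The giant sarcomere gene Ttn gave much of the sum in vehicle 1 and 3, with 18.6, 25.3 and 18.4 CPM. Desmin (Des), an intermediate filament of all muscle, stood at 2.10, 47.2 and 2.34 CPM and followed the skeletal genes rather than the smooth muscle genes above. Igfbp5, which binds insulin-like growth factors, also stood apart high in vehicle 2, at 6.58, 17.8 and 7.38 CPM. The part of neighbouring muscle in other genes of vehicle 2 was not tested. Vehicle 2 was also highest for Car3 (2.03, 16.6 and 2.64 CPM) and Plin4 (0.534, 2.15 and 0.385 CPM), which are members of the adipocyte list. The defining adipocyte genes Adipoq (0.463, 0.393 and 0.801 CPM) and Plin1 (0.391, 0.636 and 0.267 CPM) were low in each tumour. The hair follicle protein trichohyalin (Tchh) stood at 3.17, 62.02 and 3.47 CPM, while of 17 skin genes 8 had a value, with sums of 16.1, 24.1 and 20.3 CPM and Krt14 at 2.17, 4.75 and 4.36 CPM. Erythroid genes were low, with haemoglobin Hbb-bs at 8.93, 7.36 and 5.49 CPM. Schwann cell and nerve genes had sums of 32.7, 28.7 and 26.5 CPM.

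**Figure D1:**
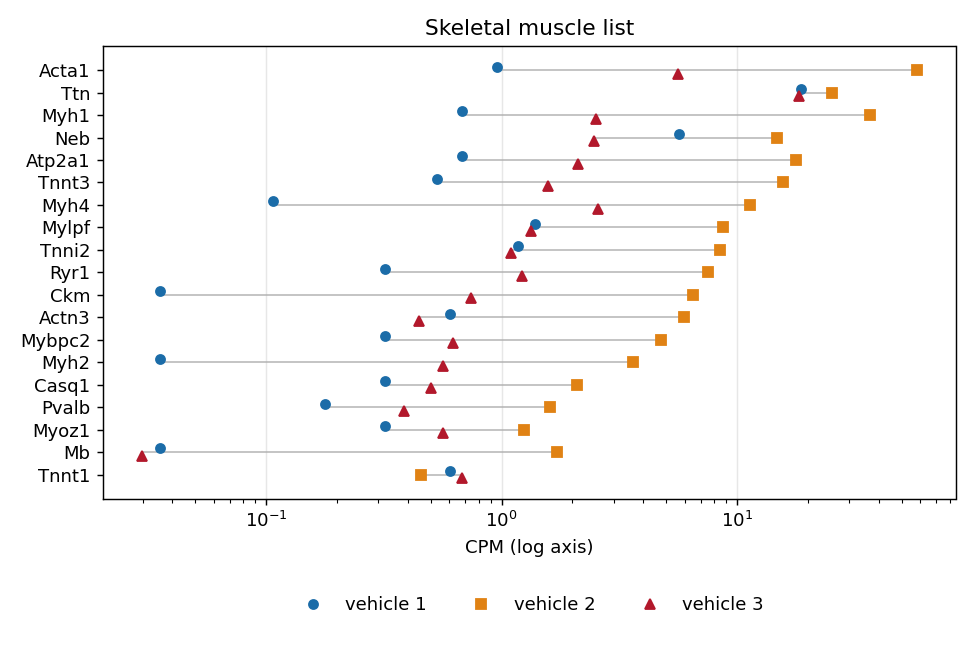
Level in CPM (log axis) of each measured skeletal muscle gene in the 3 vehicle tumours, 1 point a tumour, joined by a line from lowest to highest; a gene with 0 reads is drawn at the value for 0.5 reads. Vehicle 2 is highest for all genes but Tnnt1, with Acta1 at 57.96 CPM there and 0.961 CPM in vehicle 1, while Ttn differs by 1.37-fold.

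Leukocyte genes were plentiful. The 12 pan-leukocyte genes summed to 1766, 2061 and 1547 CPM, 11 were highest in vehicle 2 and 10 lowest in vehicle 3. A range of at least 2-fold was found for 0 of them, near the 2.24% of all genes with a mean of at least 10 CPM. The leukocyte phosphatase Ptprc (CD45) stood at 213, 248 and 145 CPM and the integrin chain Itgb2 at 187, 222 and 148 CPM. The myeloid transcription factor Spi1 stood at 64.7, 89.6 and 76.4 CPM.

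**Figure D2:**
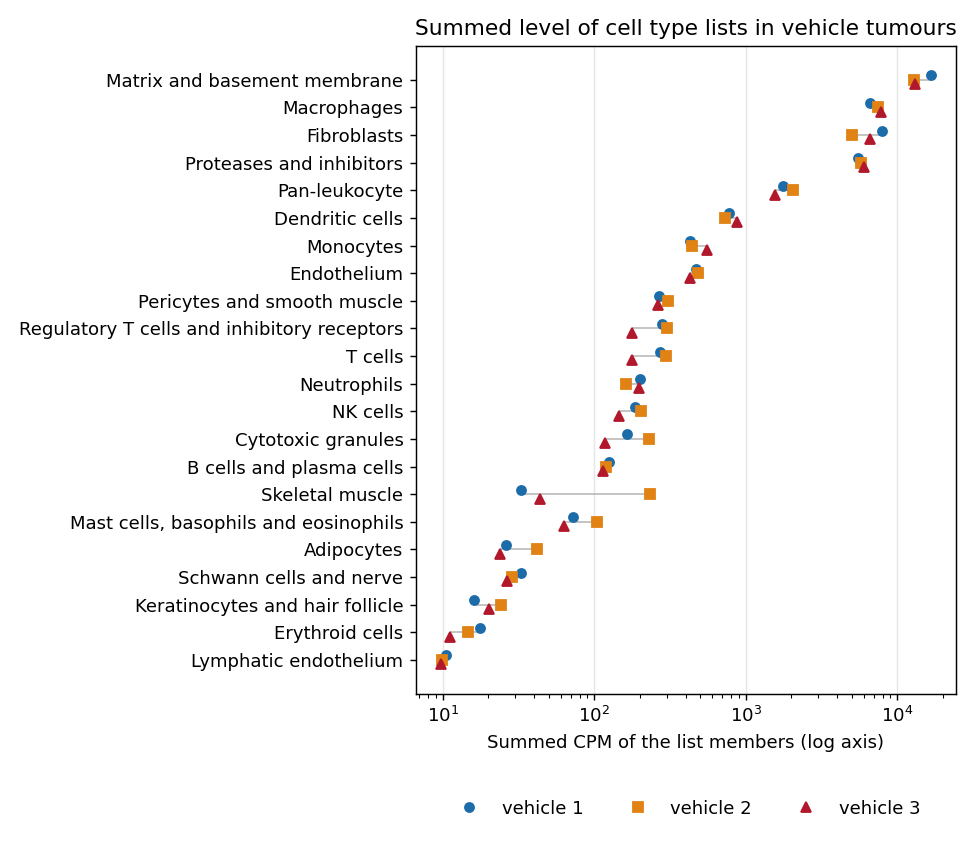
Summed CPM (log axis) of the measured members of each stromal, immune and neighbouring tissue list, 1 point per vehicle tumour. Lists differ in number and length of genes, so points are to be compared within a row: the muscle row spreads most, from 32.6 to 232 CPM, T cells are lowest in vehicle 3 (176 CPM), and endothelium lies within 429 to 482 CPM.

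Leading macrophage genes stood far above the T cell gene Cd3e by CPM per kilobase. Lyz2 stood at 3264 ± 188, the lipid carrier Apoe at 2722 ± 143 and the complement subunit C1qa at 2424 ± 249 on that scale, against 5.60 ± 1.91 for the T cell receptor subunit Cd3e. Not every macrophage gene was high, as for Cd163 below. The mean log2 CPM was 6.53, 6.70 and 6.70 over the 25 measured macrophage genes. It was 3.06, 3.27 and 2.13 over the 26 T cell genes. The macrophage list summed to 6555, 7445 and 7811 CPM. The pan-macrophage genes were alike in the 3 tumours, with Csf1r, the receptor of the survival factor Csf1, at 411, 468 and 444 CPM, Adgre1 (F4/80) at 154, 191 and 194 CPM and Cd68 at 146, 162 and 166 CPM. Both ligands of Csf1r were present, Csf1 at 404, 456 and 367 CPM and Il34 at 53.1, 44.3 and 48.01 CPM. The lipid sensor Trem2 stood at 54.8, 63.5 and 79.1 CPM and the sialoadhesin Siglec1 at 143, 157 and 186 CPM.

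The macrophage genes that differed did so in opposite directions. The nitric oxide synthase Nos2 stood at 71.9, 72.3 and 15.5 CPM, low in vehicle 3, and the Fc receptor Fcgr1 at 91.8, 140.4 and 62.3 CPM, lowest there. The mannose receptor Mrc1 (ENSMUSG00000026712.4) stood at 152, 167 and 441 CPM, the scavenger receptor Cd163 at 2.38, 3.18 and 9.10 CPM and arginase (Arg1) at 244, 356 and 601 CPM, all highest in vehicle 3. Arg1 was graded, with vehicle 2 between the others. Of the 24 macrophage genes with a mean of at least 1 CPM 5 had a range of at least 2-fold, 2 of them high and 1 low in vehicle 3, and 2 were graded. Of all genes with that mean 6.91% had such a range, 0.744% were high and 1.57% low in vehicle 3.

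The 8 genes with the largest range among those high in vehicle 3 included Retnla, Chil3 and Mgl2. These were named above as made by macrophages exposed to interleukin 4 or 13. The genes named in the text were chosen with earlier results of these data known, and exposure to either interleukin was not tested. Of 9715 genes with a mean of at least 10 CPM, 39 (0.401%) had a range of at least 2-fold and stood apart high in vehicle 3. The ribonuclease Rnase2a (ENSMUSG00000047222.8) stood at 0.534, 0.151 and 76.6 CPM, from 7, 2 and 1291 reads. Its relative Ear2 stood at 7.37, 3.06 and 76.1 CPM. Both belong to the eosinophil-associated ribonucleases, a family of similar copies whose reads may be split between them. The secreted protein Retnla stood at 4.73, 2.51 and 110.1 CPM and the chitinase-like Chil3 at 16.1, 7.78 and 176 CPM. The eosinophil attractant Ccl24 stood at 1.32, 3.66 and 40.5 CPM. The lectin Mgl2, found on macrophages and dendritic cells, stood at 27.4, 20.6 and 154 CPM, the carbonyl reductase Cbr2 at 8.08, 5.90 and 85.7 CPM and the growth factor Igf1 at 6.30, 3.66 and 50.97 CPM. For each of the 8 genes vehicle 3 lay above both other tumours, as the rule that set them apart requires. Vehicle 1 and vehicle 2 were not alike for all of them, as for Rnase2a (0.534 and 0.151 CPM) and Ccl24 (1.32 and 3.66 CPM).

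Markers of eosinophils were low in all 3 tumours, with Siglecf at 0.249, 0.151 and 1.22 CPM and the eotaxin receptor Ccr3 at 0.320, 0.696 and 1.04 CPM. Both were highest in vehicle 3. Other eosinophil granule genes are not analysed here. The part of eosinophils in the levels of Rnase2a and Ear2 was not tested.

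**Figure D3:**
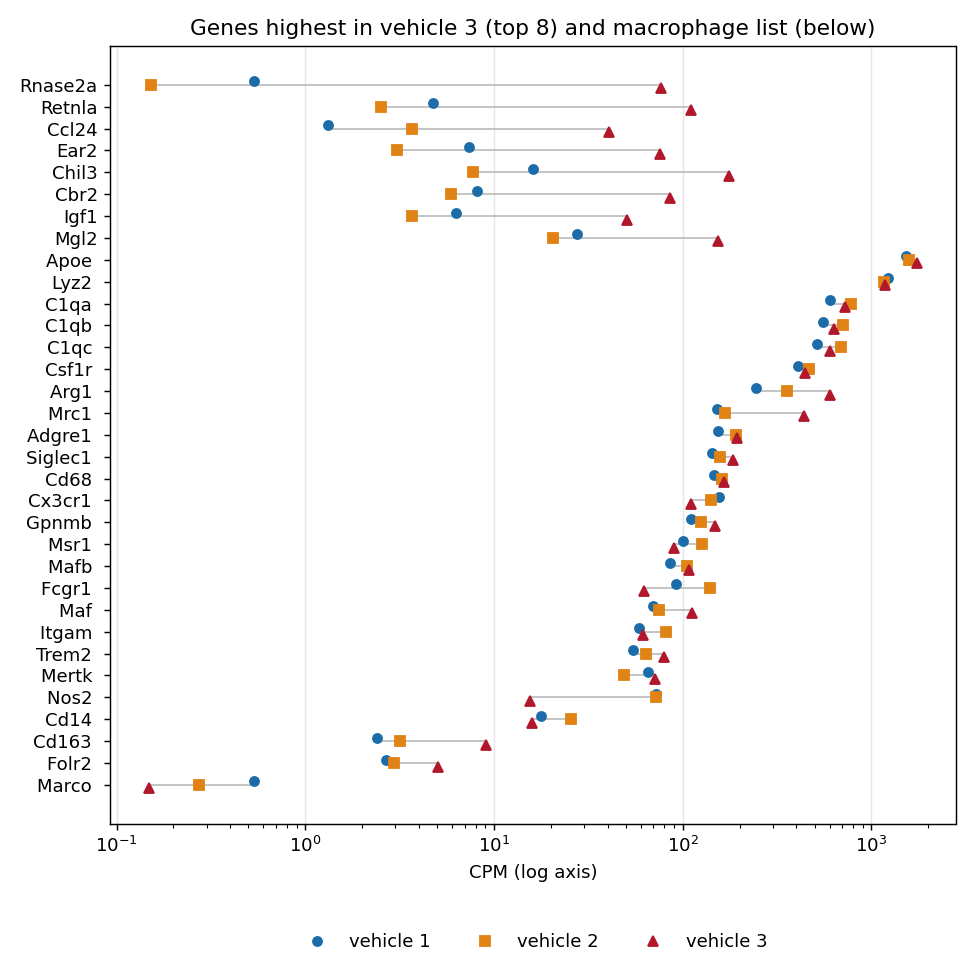
Level in CPM (log axis) in each vehicle tumour of the 8 genes with the largest range among those high in vehicle 3 (upper rows) and of the macrophage list by mean level (lower rows). In the upper rows vehicle 3 lies far to the right, as for Retnla (110.1 against 4.73 and 2.51 CPM), while most macrophage genes coincide and Nos2 lies to the left in vehicle 3.

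Of the 12 monocyte genes with a mean of at least 1 CPM, 9 were lowest and 3 highest in vehicle 3. A range of at least 2-fold was found for 6, of which 3 stood apart low and 1 high in vehicle 3, where 6.91%, 1.57% and 0.744% of all genes with that mean did. The chemokine receptor Ccr2 was highest in vehicle 3, at 149.7, 129.6 and 217 CPM, as was Chil3 above. The classical monocyte marker Ly6c2 stood at 16.4, 16.9 and 14.9 CPM. The integrin Itgal, which lymphocytes also carry, stood at 89.4, 101 and 34.01 CPM and Plac8 at 19.8, 24.6 and 10.8 CPM, both low in vehicle 3. The sums, 429, 441 and 556 CPM, were highest in vehicle 3 and rest largely on Ccr2 and Chil3, while the mean log2 CPM of its 13 measured members was lowest there, at 3.81, 3.93 and 3.55.

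Dendritic cell genes held 5 of 17 members that stood apart high in vehicle 3, where 0.744% of all genes with a mean of at least 1 CPM did. These were Mgl2, the transcription factor Irf4 (5.59, 4.99 and 14.5 CPM), the lectin Clec10a (5.59, 5.36 and 13.1 CPM), the chemokine Ccl17 (3.88, 2.39 and 12.1 CPM) and the lectin Cd209a (0.676, 0.333 and 7.92 CPM). Genes of cross-presenting dendritic cells did not follow them: Clec9a stood at 5.30, 4.57 and 4.30 CPM and Xcr1 at 3.03, 2.94 and 1.93 CPM. The migration receptor Ccr7 stood at 12.2, 7.23 and 12.9 CPM. The plasmacytoid marker Siglech was low at 0.890, 0.393 and 1.33 CPM.

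The defining neutrophil genes were at or near 0. The defining surface marker Ly6g had 0 reads in all 3 tumours, which allows up to 0.214 (vehicle 1), 0.182 (vehicle 2) and 0.178 CPM (vehicle 3), for counting error only. The alarmins S100a8 and S100a9 stood at 0.676, 1.06 and 0.148 and 0.534, 0.878 and 0.267 CPM. The list's sums of 199, 161 and 197 CPM came mostly from Mmp9 (139, 88.2 and 158 CPM) and Csf3r (28.5, 37.02 and 24.5 CPM), which other myeloid cells express. Of the 7 members with a mean of at least 1 CPM, 5 had a range of at least 2-fold and 4 of these stood apart low in vehicle 3, where 6.91% and 1.57% of all genes with that mean did. The 4 were Trem1 (10.4, 8.63 and 3.05 CPM), Clec4d (7.37, 9.78 and 2.05 CPM), Il1r2 (4.73, 6.33 and 2.22 CPM) and Clec4e (4.73, 6.81 and 1.57 CPM), receptors that other myeloid cells also carry. The mean log2 CPM of the 14 measured members was 0.85, 0.88 and -0.02. Mast cell proteases were highest in vehicle 2, with the tryptase Tpsb2 at 9.86, 21.8 and 5.66 CPM, the chymase Cma1 at 5.16, 12.5 and 2.99 CPM and Mcpt4 at 3.24, 9.96 and 1.99 CPM. B cell genes were low, with the antigen receptor subunit Cd79a at 0.391, 0.333 and 0.208 CPM and Ms4a1 (CD20) at 0.320, 0.0908 and 0.0890 CPM, and the sum of that list (119.9 ± 5.37 CPM) rests on the broadly expressed Sdc1.

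T cell genes were present at low levels and lowest in vehicle 3. All 26 had a mean of at least 1 CPM, 25 were lowest in vehicle 3 and 7 had a range of at least 2-fold and stood apart low there, where 1.57% of all genes with that mean did. The sums were 273, 295 and 176 CPM. The receptor subunits Cd3e (7.65, 7.36 and 3.94 CPM) and Cd3g (8.72, 10.7 and 4.77 CPM) and the constant region Trac (13.3, 14.98 and 7.86 CPM) were about as high in vehicle 1 as in vehicle 2. The difference was wider for the CD8 chains, Cd8a (ENSMUSG00000053977.14) at 9.004, 17.6 and 2.40 CPM and Cd8b1 at 4.02, 9.84 and 0.979 CPM, than for Cd4 at 8.86, 7.72 and 6.26 CPM. Cd4 is also expressed by some myeloid cells.

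Regulatory T cell genes and inhibitory receptors were lowest in vehicle 3 in 16 of 16. A range of at least 2-fold was found for 7, and 5 stood apart low in vehicle 3. Of all genes with a mean of at least 1 CPM, 6.91% had such a range and 1.57% stood apart low there. The regulatory T cell factor Foxp3 stood at 10.6, 9.05 and 4.71 CPM and the inhibitory receptors Ctla4 at 16.8, 12.02 and 7.98 CPM, Pdcd1 (PD-1) at 8.36, 8.63 and 2.28 CPM and Tigit at 7.30, 9.11 and 3.59 CPM. Lag3 stood apart high in vehicle 2, at 8.93, 20.2 and 6.32 CPM. Havcr2, also found on macrophages, was less spread, at 47.4, 53.2 and 39.9 CPM.

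Among cytotoxic granule genes granzyme B (Gzmb) stood at 32.1, 55.7 and 9.99 CPM and perforin (Prf1) at 15.2, 19.4 and 7.68 CPM, lowest in vehicle 3. Granzyme A (Gzma) did not share this order, at 7.79, 7.29 and 7.62 CPM. Granzyme C (Gzmc) was the most abundant of the list per kilobase, 231 ± 51.1, and stood at 54.8, 71.6 and 45.99 CPM. NK cell genes differed less, with a median range of 1.56-fold, the receptor Ncr1 at 5.52, 3.60 and 3.53 CPM and Klrb1c (NK1.1) at 2.88, 1.91 and 2.99 CPM. Interferon-gamma itself (Ifng, ENSMUSG00000055170.5) had 18, 42 and 1 reads, or 1.32, 2.57 and 0.0890 CPM. At so few reads the level in vehicle 3 is not separated from 0 beyond counting error.

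The interferon-gamma response list had the widest spread of the lists whose members were mostly above 10 CPM. Of its 32 genes 29 had a mean of at least 10 CPM. Of these 29, 20 had a range of at least 2-fold and 15 stood apart low in vehicle 3, where 0.793% of all genes with that level did. With a mean of at least 1 CPM it was 23 and 17 of 32, and the other 6 were graded. The sums were 5093, 6636 and 2424 CPM and the median range 3.30-fold (1.72 on the log2 scale), against 1.22-fold (0.29) over all genes with a mean of at least 1 CPM. In 28 of the 32 vehicle 3 was lowest and in 28 vehicle 2 highest. The list was drawn up with the order of these tumours known, so its counts describe it and are no independent evidence.

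The receptor and kinase genes of the pathway differed little. The receptor chains Ifngr1 and Ifngr2 stood at 146, 124 and 128 and 98.6, 98.6 and 109 CPM. The kinases Jak1 and Jak2 stood at 243, 226 and 211 and 134, 123 and 141 CPM. The transcription factor Irf1, itself an interferon target, was lowest in vehicle 3, at 355, 398 and 253 CPM, and the inhibitor Socs1 stood at 29.6, 41.9 and 33.1 CPM.

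The chemokine Cxcl9 (ENSMUSG00000029417.10), which draws T cells through Cxcr3, stood at 269, 413 and 42.02 CPM, its relative Cxcl10 at 317, 411 and 105 CPM and Cxcl11 at 4.59, 6.39 and 0.445 CPM. Vehicle 3 was below both other tumours for all 3 chemokines. Guanylate-binding proteins defend cells against intracellular microbes: Gbp2 stood at 661, 1009.7 and 258 CPM, Gbp4 at 296, 402 and 72.6 CPM and Gbp5 at 123, 144 and 45.2 CPM. The immunity-related GTPases Igtp (ENSMUSG00000078853.9), Iigp1 and Irgm1 stood at 228, 343 and 68.4, 283, 410.1 and 74.6 and 309.8, 447 and 141 CPM. The T cell-specific GTPase genes Tgtp1 and Tgtp2 stood at 34.5, 61.4 and 6.08 and 121, 170.0 and 32.4 CPM. The Gbp genes and the Tgtp pair are near-identical to relatives, so reads may be split among them. Outside the list, Apol6, an apolipoprotein L, had the largest range of the genes low in vehicle 3, with 17.4, 27.03 and 0.860 CPM, and Acod1, which makes itaconate in macrophages, stood at 29.1, 44.8 and 9.16 CPM. The Fc receptor Fcgr4 stood at 67.9, 135 and 24.9 CPM and the prothrombinase Fgl2 at 139, 239 and 62.6 CPM, graded with vehicle 3 lowest.

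**Figure D4:**
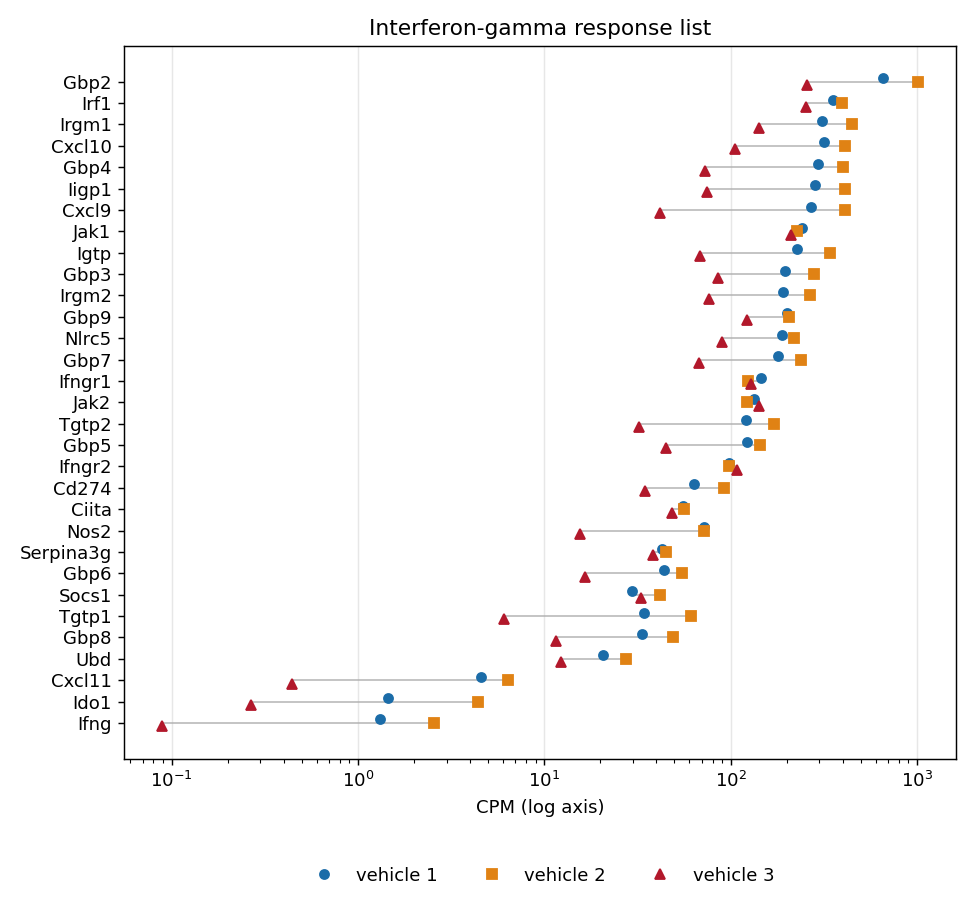
Level in CPM (log axis) of 31 of the 32 interferon-gamma response genes in each vehicle tumour, ordered by mean level. Vehicle 3 is to the left for 27 of the 31, as for Cxcl9 (42.02 against 269 and 413 CPM), while Jak1, Jak2, Ifngr1, Ifngr2, Ciita and Serpina3g nearly coincide.

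Promoters of genes in this group are shown because they varied together among the tumours and the letters TTCNNNGAA, known as the gamma-activated sequence, occur in promoters induced by interferon-gamma. These letters read the same on both strands. Sequences are from RefSeq on GRCm38.p6, from 250 bases before to 50 after the start of the gene, 5′ to 3′ along the gene, with the letters in capitals. Of the 15 genes of the list with a mean of at least 10 CPM that stood apart low in vehicle 3, 8 have a promoter in the RefSeq table and 6 of the 8 hold the letters, against 2726 of all 32851 promoters of that length (8.30%). A match is a description of the letters and not a measured binding site. These genes were picked from a list of interferon-gamma response genes, so the share says nothing of their order among the tumours. Tgtp1 and the near-identical Tgtp2 are both among the 6. In Igtp (chr11:58199306-58199605, + strand) they begin 45 bases before the start, in Gbp5 (chr3:142496684-142496983, + strand) 245 and 52 bases before, and in Tgtp2 (chr11:49064163-49064462, - strand) 81 bases before. Cxcl9 (chr5:92328030-92328329, - strand), with the widest range of the 4, holds none in this window.
Igtp: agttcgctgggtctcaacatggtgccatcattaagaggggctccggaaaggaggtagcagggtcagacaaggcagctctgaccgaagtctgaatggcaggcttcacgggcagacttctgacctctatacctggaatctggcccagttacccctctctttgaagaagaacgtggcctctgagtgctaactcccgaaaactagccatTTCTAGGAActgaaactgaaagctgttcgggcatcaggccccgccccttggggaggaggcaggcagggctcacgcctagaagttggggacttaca
Gbp5: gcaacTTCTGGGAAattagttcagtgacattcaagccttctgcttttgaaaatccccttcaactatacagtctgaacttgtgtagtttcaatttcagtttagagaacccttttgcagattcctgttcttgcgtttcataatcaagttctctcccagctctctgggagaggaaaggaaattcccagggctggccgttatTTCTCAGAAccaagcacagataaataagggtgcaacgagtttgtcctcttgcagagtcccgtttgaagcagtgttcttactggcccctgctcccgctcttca
Tgtp2: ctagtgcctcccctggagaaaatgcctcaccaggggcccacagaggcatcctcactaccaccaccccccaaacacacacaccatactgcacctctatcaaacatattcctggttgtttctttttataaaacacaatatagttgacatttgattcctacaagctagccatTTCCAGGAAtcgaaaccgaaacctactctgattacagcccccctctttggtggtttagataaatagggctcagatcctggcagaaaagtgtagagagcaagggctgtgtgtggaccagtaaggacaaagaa
Cxcl9: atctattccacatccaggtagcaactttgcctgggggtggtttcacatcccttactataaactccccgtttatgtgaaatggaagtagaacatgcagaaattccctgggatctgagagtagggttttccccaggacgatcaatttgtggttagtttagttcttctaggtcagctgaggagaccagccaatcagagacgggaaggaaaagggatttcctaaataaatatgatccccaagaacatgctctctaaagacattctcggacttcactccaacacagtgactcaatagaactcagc

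Type I interferon response genes followed the same order less widely. All 32 had a mean of at least 10 CPM, 31 were lowest in vehicle 3, 8 had a range of at least 2-fold and 7 stood apart low in vehicle 3, where 2.24% and 0.793% of all genes with that level did. The median range was 1.77-fold and the sums were 3051, 3596 and 2010.1 CPM. The transcription factor Irf7 stood at 136, 197 and 88.99 CPM, Stat2 at 212, 256 and 117 CPM, the ubiquitin-like Isg15 at 69.1, 97.01 and 64.2 CPM and Ifit1, which binds viral RNA, at 118, 125 and 81.9 CPM. Both interferon lists share genes that either interferon can induce. Interferon beta (Ifnb1) had 2, 1 and 2 reads, at or below the 3 reads of the limit.

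Antigen presentation differed between its 2 classes. All 20 MHC class I genes with a mean of at least 10 CPM were lowest in vehicle 3 and highest in vehicle 2, and 4 had a range of at least 2-fold, where 2.24% of all genes with that level did. The sums were 10765, 12024 and 8179.7 CPM. B2m (ENSMUSG00000060802.9) stood at 2914, 3129 and 2206 CPM, H2-K1 at 2421, 2667 and 1813 CPM and H2-D1 at 2399.6, 2666 and 1939.9 CPM, with ranges of 1.42-, 1.47- and 1.37-fold. The peptide transporter Tap1 stood at 306, 380.4 and 165 CPM and the class I activator Nlrc5 at 189.7, 219 and 90.1 CPM, a wider difference. H2-Q and H2-T genes are near-identical copies and are uncertain one by one.

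MHC class II genes were high in all 3 tumours without that order, and 1 of 10 with a mean of at least 1 CPM was lowest in vehicle 3. The sums were 4254, 5051 and 4596 CPM. Cd74 stood at 1758, 2128 and 1887 CPM, H2-Ab1 at 856, 1003 and 900.2 CPM and the class II activator Ciita at 55.6, 56.2 and 48.2 CPM. The exception in range was H2-DMb2, a chain of the peptide-loading factor, at 12.1, 10.3 and 23.6 CPM.

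The sensors through which the agents given to other tumours of the series are known to act were measured in these vehicle-injected tumours. They are Tlr3, Ifih1 and Ddx58, which recognise double-stranded RNA, and Tmem173 (STING). Tlr3 stood at 36.3, 37.1 and 22.98 CPM, Ifih1 at 81.2, 87.3 and 55.9 CPM, Ddx58 at 231, 224 and 182 CPM and Tmem173 at 70.6, 80.97 and 57.6 CPM. The adaptor Mavs stood at 59.3, 66.2 and 66.2 CPM, the kinase Tbk1 at 62.5, 68.5 and 57.1 CPM, Irf3 at 37.2, 38.4 and 43.7 CPM and the receptor chain Ifnar1 at 115, 111 and 99.6 CPM. Of the 16 of 17 genes with a mean of at least 10 CPM 0 had a range of at least 2-fold, near the share of all genes (2.24%). In 13 of the 16 vehicle 3 was lowest.

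Chemokines were among the lists with the most varied members. Of 22 with a mean of at least 1 CPM 15 had a range of at least 2-fold, 5 low and 4 high in vehicle 3, where 6.91%, 1.57% and 0.744% of all genes with that mean did. Besides Cxcl9, Cxcl10 and Cxcl11, the T cell attractants Ccl5 (67.1, 90.2 and 36.2 CPM), Ccl4 (5.02, 11.2 and 1.87 CPM) and Ccl3 (4.16, 7.72 and 0.563 CPM) were lowest in vehicle 3. Ccl8 (29.4, 58.1 and 135 CPM), Ccl6 (46.3, 56.4 and 108 CPM), Ccl9 (50.4, 45.4 and 121 CPM), Ccl17 and Ccl24 were highest there. The monocyte attractant Ccl2 differed little, at 94.3, 120.0 and 83.7 CPM, and the neutrophil attractants Cxcl1 and Cxcl2 were low at 8.72, 6.99 and 6.73 and 0.961, 0.515 and 0.326 CPM.

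Inflammatory cytokines were low. Tnf stood at 7.08, 11.7 and 3.05 CPM and Il1b at 11.4, 18.1 and 5.07 CPM, both lowest in vehicle 3, and Il6 at 0.534, 0.393 and 0.623 CPM. Among growth factors, Tgfb1 (140.1, 139.6 and 133 CPM) and Mif (327, 362 and 359 CPM) were higher and steadier. Igf1 and Tgfb3, given above, had ranges of at least 2-fold. Of the 22 cytokine and growth factor genes with a mean of at least 1 CPM, 9 had such a range, where 6.91% of all genes with that mean did. The checkpoint ligand Cd274 (PD-L1), an interferon target, stood at 63.8, 91.8 and 34.8 CPM and was lowest in vehicle 3, while the second PD-1 ligand Pdcd1lg2 ran the other way, at 7.51, 11.3 and 17.4 CPM. The don't-eat-me signal Cd47 (248, 251 and 254 CPM) and its receptor Sirpa (261, 297 and 266 CPM) were steady. The tryptophan enzyme Ido1 was low, at 1.46, 4.39 and 0.267 CPM.

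Complement genes were led by C1qa, C1qb and C1qc, shared with the macrophage list. The central component C3 stood at 288, 247 and 245 CPM, and the C1 inhibitor Serping1 was low in vehicle 3, at 32.7, 41.8 and 13.5 CPM. Of immediate early genes, Jun stood at 347, 352 and 378 CPM, Egr1 at 24.2, 24.5 and 17.2 CPM and Fos at 16.98, 23.9 and 5.72 CPM. Fos was the 1 gene of the 19 with a range of at least 2-fold, near the 6.91% of all genes with a mean of at least 1 CPM.

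Across all genes the tumours were close. Among the 9715 genes with a mean of at least 10 CPM the median range was 1.17-fold and the median coefficient of variation beyond counting error 7.39%, an estimate from 3 tumours. A range of at least 2-fold was found for 218 genes (2.24%) and of at least 4-fold for 42 (0.432%). Of the 218, 77 stood apart low in vehicle 3, 39 high in vehicle 3, 11 low and 4 high in vehicle 2, 2 low and 0 high in vehicle 1, and 85 were graded. Vehicle 3 was the highest or the lowest tumour for 208 of them, vehicle 2 for 179 and vehicle 1 for 49. In pairs, 20 genes lay at least 2-fold apart between vehicle 1 and 2, 119 between vehicle 1 and 3, and 192 between vehicle 2 and 3. Of the 77 genes low in vehicle 3, 25 were members of the interferon or MHC class I lists, and 0 of the 39 high in vehicle 3 were. Of the 9715 genes, the interferon-gamma, type I interferon and MHC class I lists hold 29, 32 and 20, and they may overlap. The lists were chosen with earlier results of these data known, so these counts are no independent evidence. With a mean of at least 1 CPM, 966 of 13970 genes (6.91%) had a range of at least 2-fold, a count in which counting error weighs more.

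**Figure D5:**
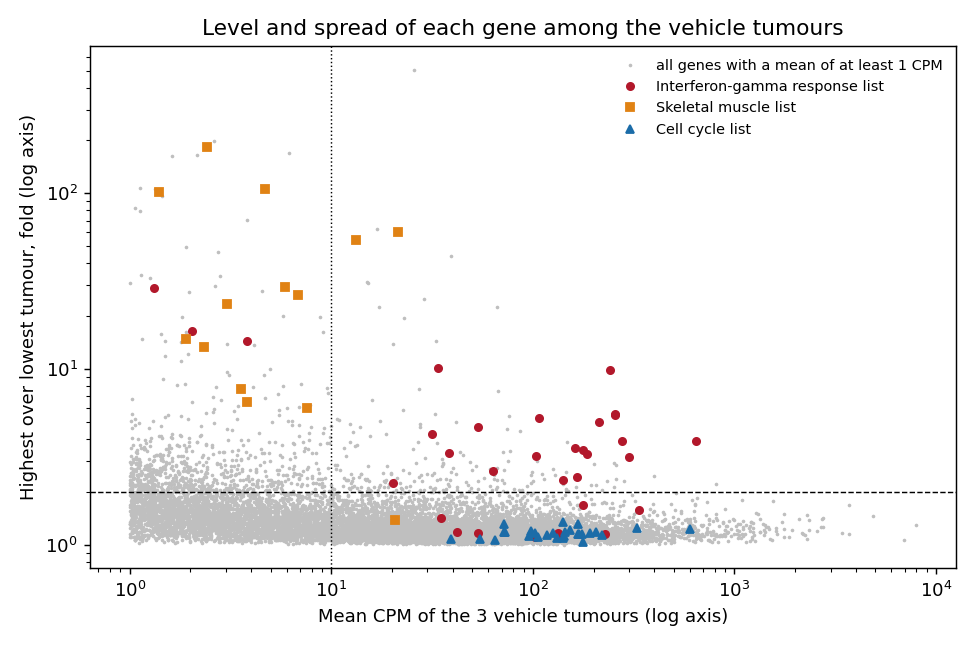
Each gene with a mean of at least 1 CPM, placed by its mean level (log axis, CPM) and by the highest over the lowest vehicle tumour (log axis, fold), with 3 lists in colour; the dashed line marks 2-fold and the dotted line 10 CPM. Most interferon-gamma response genes and nearly all muscle genes lie above 2-fold, and all 28 cell cycle genes lie below it.

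Some genes hardly differed. Among those with a mean of at least 100 CPM the smallest range belonged to the kinase Stk11 (ENSMUSG00000003068.18), at 142.2, 142.2 and 142.1 CPM. The deadenylase subunit Cnot6 stood at 181, 179.7 and 180.1 CPM and the splicing factor subunit Sf3b2 at 425, 423 and 426 CPM. Phf20l1, Zfp207, Wac and Scarb1, the high-density lipoprotein receptor, were also among the 8 genes with the smallest range. Their differences lay below the counting error of a single library.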

How the data were processed

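Stranded mRNA libraries of 3 vehicle-injected tumours were read from the authors' deposited table of log2 CPM, made with STAR, edgeR and limma on mm39, tools and build that the submitters' processing notes name without order or version. In the deposited log2 values 0.5 reads were added before the log and library sizes carry a scaling factor (1.07, 1.05 and 1.08). Reads were recovered as whole numbers for 100% of values (largest distance 4.16e-09, tolerance 1e-06). A table of raw reads has 15 columns that name no sample, and these were not used. Whether counting used strand is not given in the sources used here, so overlapping and antisense genes are uncertain.

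CPM is 2 to the power of the log2 value. Symbols and exon lengths came from GENCODE M21 by identifier: 17636 genes had a symbol, 76 had none and 6 symbols were shared. M21 lies on an older build, so no coordinates were taken from it. Some members of the lists, and 1 gene that the rule for named genes picks, are counted but not reported here by name. Python 3.11.15, numpy 2.4.6, pandas 2.3.3 and matplotlib 3.10.9 were used, and the spread calculation was tested on simulated data. No statistical test was run, since 1 group has nothing to compare. Error is the SD over 3 tumours, and the labels do not say whether animals shared a cage or day.

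The 49 gene lists and the members were chosen with earlier results of these data known. Named genes are the 20 most abundant on either scale, members of lists that lead, define or vary most, the 8 with the largest range per tumour and direction (mean of at least 10 CPM) and the 8 with the smallest range (mean of at least 100 CPM). Alternatives were other scalings, filters, shares of the range, list summaries and gene lengths, no added reads, and each tumour left out. Intervals and limits for 0 reads cover counting error only.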

Additional observations from a re-analysis of the deposited data

How the results depend on the processing

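No paired analysis was possible because the results come from 1 group and from no test. Genes with a range of at least 2-fold (218) numbered 966 where the mean had to reach 1 CPM and 116 where it had to reach 30 CPM. Genes with a range of at least 4-fold (42) numbered 163 and 18. Leaving out each tumour in turn gave 19 to 196 genes at 2-fold and 4 to 39 at 4-fold, the lowest without vehicle 3. Without vehicle 2 it was 112 and 22. The mean is then taken over the tumours left. Low in vehicle 3 (77) were 220 and 46 genes under these filters, 116 where 0.5 of the range sets a tumour apart and 34 where 0.8 does. High in vehicle 3 (39) were 104, 19 and, at 0.8, 25. High in vehicle 2 (4) were 55, 0 and, at 0.5, 15; low in vehicle 2 (11) were 91, 6 and 20. Low in vehicle 1 (2) were 45, 1 and 7, with 0 at 0.8 and 0 with total reads alone; high in vehicle 1 (0) were 31 with the lower filter and 5 at 0.5. The share changes its own counts by construction; for the filters the cause was not tested. Scaling by median of ratios or total reads and adding no reads kept the 2-fold and 4-fold counts within 1.5 times. Total reads alone moved 10 of 45 list levels and 14 of 79 gene levels by more than 1 SD, and 14 of 45 lists had another lowest tumour by mean log2 CPM. Depth limits genes near 1 CPM, such as Ifng.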
